A study of Mus musculus with 20 samples.

Results

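The collagen genes were followed by messenger RNA sequencing in 20 mouse hearts. Members were taken by symbol, as every gene named Col, a type number, the letter a and a chain number, which gave 43 of the 23284 genes listed. The 23 members with a mean of at least 0.5 FPKM (fragments scaled by transcript length and by the fragments of the library) over the 20 hearts were tested, and the other 20 were below that level. By type number, 9 members were fibrillar (types 1, 2, 3, 5 and 11; 6 tested), 8 belonged to the basement membrane (types 4, 15 and 18; 7 tested), 6 to the beaded microfibrils of type 6 (4 tested), 3 to the networks of types 8 and 10 (2 tested) and 17 to other types (4 tested).

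The mice were C57BL/6. Control hearts carried a floxed Wnt5a gene, and CKO hearts carried the floxed gene together with Myh6-Cre/Esr 1, a Cre recombinase under the promoter of a heart muscle myosin that tamoxifen activates, so that Wnt5a in fibroblasts, vessels and blood cells was not a target. Each genotype had 2 hearts at the end of tamoxifen treatment, 2 hearts at each of 2 and 4 weeks after a sham operation, and 2 hearts at each of 2 and 4 weeks after TAC, transverse aortic constriction, which narrows the aorta and loads the left ventricle. Age, sex, the tamoxifen schedule and the part of the heart taken are not given in the sources used here. Nothing in the labels says more of how the 2 hearts of a group are related, so p-values refer to the spread between these hearts. For limma that spread is 1 value per gene, estimated within all 10 groups and drawn towards a trend over all genes. It is not the spread of the compared hearts alone.

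The FPKM of a heart summed to 579596 to 713671, and 14788 to 15374 genes were above 0. Esr1, whose sequence the Cre fusion carries, was 197 to 931 FPKM in the CKO hearts and at most 0.465 in the control hearts. Wnt5a was 0.853 to 2.33 FPKM in the CKO hearts and 1.58 to 4.11 in the control hearts, ranges that overlapped with operations and times pooled. At the end of tamoxifen and within each operation and time, both CKO hearts were below both control hearts. The closest were the TAC hearts at 2 weeks, at 1.46 and 1.04 FPKM in CKO and 1.76 and 1.58 in control hearts. The 7 heart muscle markers summed to 31506 to 50787 FPKM in a heart, and none was at 0 in both hearts of a group. The atrial myosin light chain Myl7 was 32.2 to 372 FPKM in hearts 16 (control, sham, 2 weeks), 11 (control, TAC, 2 weeks) and 14 (CKO, sham, 2 weeks) and in both CKO hearts taken at the end of tamoxifen, and at most 1.66 FPKM in the other 15. For the tested collagen members, counts and calls that changed without these 5 hearts are given beside the result. Leaving them out kept 1 heart (32) of control TAC, 1 (12) of control sham and 1 (15) of CKO sham at 2 weeks. A call lost through the hearts themselves and a call lost through the smaller groups cannot be told apart. Chain ratios were not tested without them, and no such counts are given for the lists of other genes.

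Collagens are extracellular proteins in which 3 alpha chains wind around each other, and each Col gene encodes 1 such chain. Fibrillar collagens form the load-bearing cables between muscle cells, type IV collagen forms the sheet under vessels and around each heart muscle cell, type VI collagen forms fine beaded filaments that link cells to that sheet, and type VIII collagen forms short-chain lattices around vessels. Fibroblasts are the main source of fibrillar chains in the heart, and a rise of these chains is the classic mark of fibrosis under pressure load.

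Promoters are shown for Col4a1 and Col4a2, whose windows overlap, for the members with the largest rises under TAC, for a main fibrillar chain of each kind, and for the one member that was lower. Each runs from 250 bases before to 50 after the start of the gene, 5′ to 3′ along the gene, from RefSeq, build GRCm38.p6. Capitals mark the motifs searched, each on both strands, which were the CCAAT box, the GC box GGGCGG, the motif CATTCC that TEAD factors are known to bind, and the TATA box TATAAA. Among the 23 tested members 19 were matched, and Col1a1, Col4a3, Col5a2 and Col14a1 were not. Col4a1 lies on the minus strand at chr8:11312777-11313076, Col4a2 on the plus strand at chr8:11312555-11312854, Col8a1 on the minus strand at chr16:57754688-57754987, Col8a2 on the plus strand at chr4:126286544-126286843, Col3a1 on the plus strand at chr1:45311288-45311587, Col1a2 on the plus strand at chr6:4505368-4505667 and Col6a6 on the minus strand at chr9:105828036-105828335.
Col4a1: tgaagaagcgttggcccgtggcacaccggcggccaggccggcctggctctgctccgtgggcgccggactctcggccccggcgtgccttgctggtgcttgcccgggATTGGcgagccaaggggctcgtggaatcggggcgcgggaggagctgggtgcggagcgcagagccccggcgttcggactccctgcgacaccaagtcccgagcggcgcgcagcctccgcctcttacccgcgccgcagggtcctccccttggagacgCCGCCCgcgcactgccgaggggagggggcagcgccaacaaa
Col4a2: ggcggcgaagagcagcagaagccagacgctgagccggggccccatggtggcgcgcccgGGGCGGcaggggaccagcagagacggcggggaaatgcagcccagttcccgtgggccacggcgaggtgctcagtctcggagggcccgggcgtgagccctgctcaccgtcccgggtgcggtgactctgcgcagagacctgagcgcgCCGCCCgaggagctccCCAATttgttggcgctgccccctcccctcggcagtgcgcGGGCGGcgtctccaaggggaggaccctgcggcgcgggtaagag
Col8a1: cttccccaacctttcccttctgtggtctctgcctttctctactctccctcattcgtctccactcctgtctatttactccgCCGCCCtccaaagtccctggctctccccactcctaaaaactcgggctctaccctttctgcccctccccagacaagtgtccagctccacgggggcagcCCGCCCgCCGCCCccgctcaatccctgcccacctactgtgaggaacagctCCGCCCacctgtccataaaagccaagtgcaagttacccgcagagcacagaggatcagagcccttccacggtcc
Col8a2: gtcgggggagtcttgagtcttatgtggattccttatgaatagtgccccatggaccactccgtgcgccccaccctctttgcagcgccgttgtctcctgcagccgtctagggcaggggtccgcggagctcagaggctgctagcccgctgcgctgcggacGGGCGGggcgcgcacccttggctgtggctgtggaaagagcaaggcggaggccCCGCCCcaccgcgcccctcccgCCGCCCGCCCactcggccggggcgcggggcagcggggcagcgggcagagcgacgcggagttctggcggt
Col3a1: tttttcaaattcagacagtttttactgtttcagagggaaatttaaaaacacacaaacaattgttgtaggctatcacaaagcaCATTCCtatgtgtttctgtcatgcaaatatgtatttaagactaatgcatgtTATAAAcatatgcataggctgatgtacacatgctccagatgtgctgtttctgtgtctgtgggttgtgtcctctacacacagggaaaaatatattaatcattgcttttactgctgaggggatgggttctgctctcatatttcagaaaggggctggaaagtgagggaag
Col1a2: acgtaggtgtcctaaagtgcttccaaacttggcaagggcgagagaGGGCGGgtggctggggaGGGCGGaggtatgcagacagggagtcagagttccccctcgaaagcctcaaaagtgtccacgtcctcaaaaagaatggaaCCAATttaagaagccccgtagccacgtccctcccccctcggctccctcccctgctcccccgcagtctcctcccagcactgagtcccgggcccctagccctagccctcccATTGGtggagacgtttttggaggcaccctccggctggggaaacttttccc
Col6a6: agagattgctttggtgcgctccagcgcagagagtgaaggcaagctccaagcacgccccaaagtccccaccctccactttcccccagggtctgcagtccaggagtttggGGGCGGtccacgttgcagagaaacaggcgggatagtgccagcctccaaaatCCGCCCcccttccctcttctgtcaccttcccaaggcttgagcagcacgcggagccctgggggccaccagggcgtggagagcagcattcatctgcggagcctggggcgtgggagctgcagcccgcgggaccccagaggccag

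Col4a1 and Col4a2 are read on opposite strands from starts 21 bases apart. The start of Col4a2 lies inside Col4a1, so their first bases overlap. Their windows share 78 bases, in which a GGGCGG falls on the strand of Col4a2. Col6a2 and Col18a1 had 2 windows each, and a member was counted where any of its windows held the motif. Over the 19 matched members, GGGCGG was found in 13, CCAAT in 7, CATTCC in 3 and TATAAA in 2. The shares among 32851 single mouse promoter windows of the same length, a different unit, were 35.7% for GGGCGG, 37.4% for CCAAT, 14.7% for CATTCC and 13.6% for TATAAA. Of the printed windows, Col3a1 held CATTCC and TATAAA and no GGGCGG, whereas both network genes held 4 copies of GGGCGG each, overlapping copies counted, and no CCAAT. A match describes these letters and is not a measured binding site.

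Before any load, the family was led by the same few chains in both genotypes. In the sham hearts the highest mean levels were those of Col4a1, Col4a2 and Col3a1, from 50.6 ± 12.9 FPKM for Col3a1 in control hearts at 4 weeks to 91.1 ± 18.8 FPKM for Col4a1 in CKO hearts at 4 weeks (SD, n = 2). Col6a1, Col6a2 and Col1a2 came next, between 21.8 ± 1.93 FPKM for Col1a2 and 32.2 ± 7.04 FPKM for Col6a1. All 43 members together summed to 327 ± 6.81 FPKM in control sham hearts at 2 weeks, of which basement membrane genes took 46.9% ± 2.18 and fibrillar genes 33.4% ± 1.24 (SD, n = 2). FPKM are scaled by transcript length, so these are levels per length.

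Collagen genes of every class were higher under TAC in control hearts. Over both times, 19 of the 23 tested members were higher and 1 was lower, where limma called 15.3% of the 12589 genes tested higher and 16.1% lower (31.4% in all). The 19 were 6 of 7 basement membrane genes, 5 of 6 fibrillar genes, 3 of 4 microfibril genes, both network genes and 3 of 4 of other types. The median member stood at a log2 difference of 0.94. At 2 weeks 21 were higher and none was lower (11% of all genes higher and 12.8% lower, 23.8% in all), and at 4 weeks 9 were higher and 1 lower (6.36% higher and 6.37% lower, 12.7% in all). Without the hearts high in Myl7, control hearts at 2 weeks kept 1 TAC heart (32) and 1 sham heart (12). Col6a3 and Col27a1 then lost their calls over both times. At 2 weeks Col15a1, Col4a4, Col5a3, Col6a3 and Col27a1 lost theirs. RNA of a whole tissue cannot tell more cells of a type from more RNA per cell. The FPKM of all members together rose from the sham value above to 1040.2 ± 21.7 at 2 weeks, and at 4 weeks it was 352 ± 73.5 in sham and 593 ± 99.9 in TAC hearts (SD, n = 2). Differences are of log2(FPKM + 0.5), and a member was called where the p of limma, adjusted by Benjamini-Hochberg (BH) over all 12589 genes, was under 0.05.

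**Figure D1:**
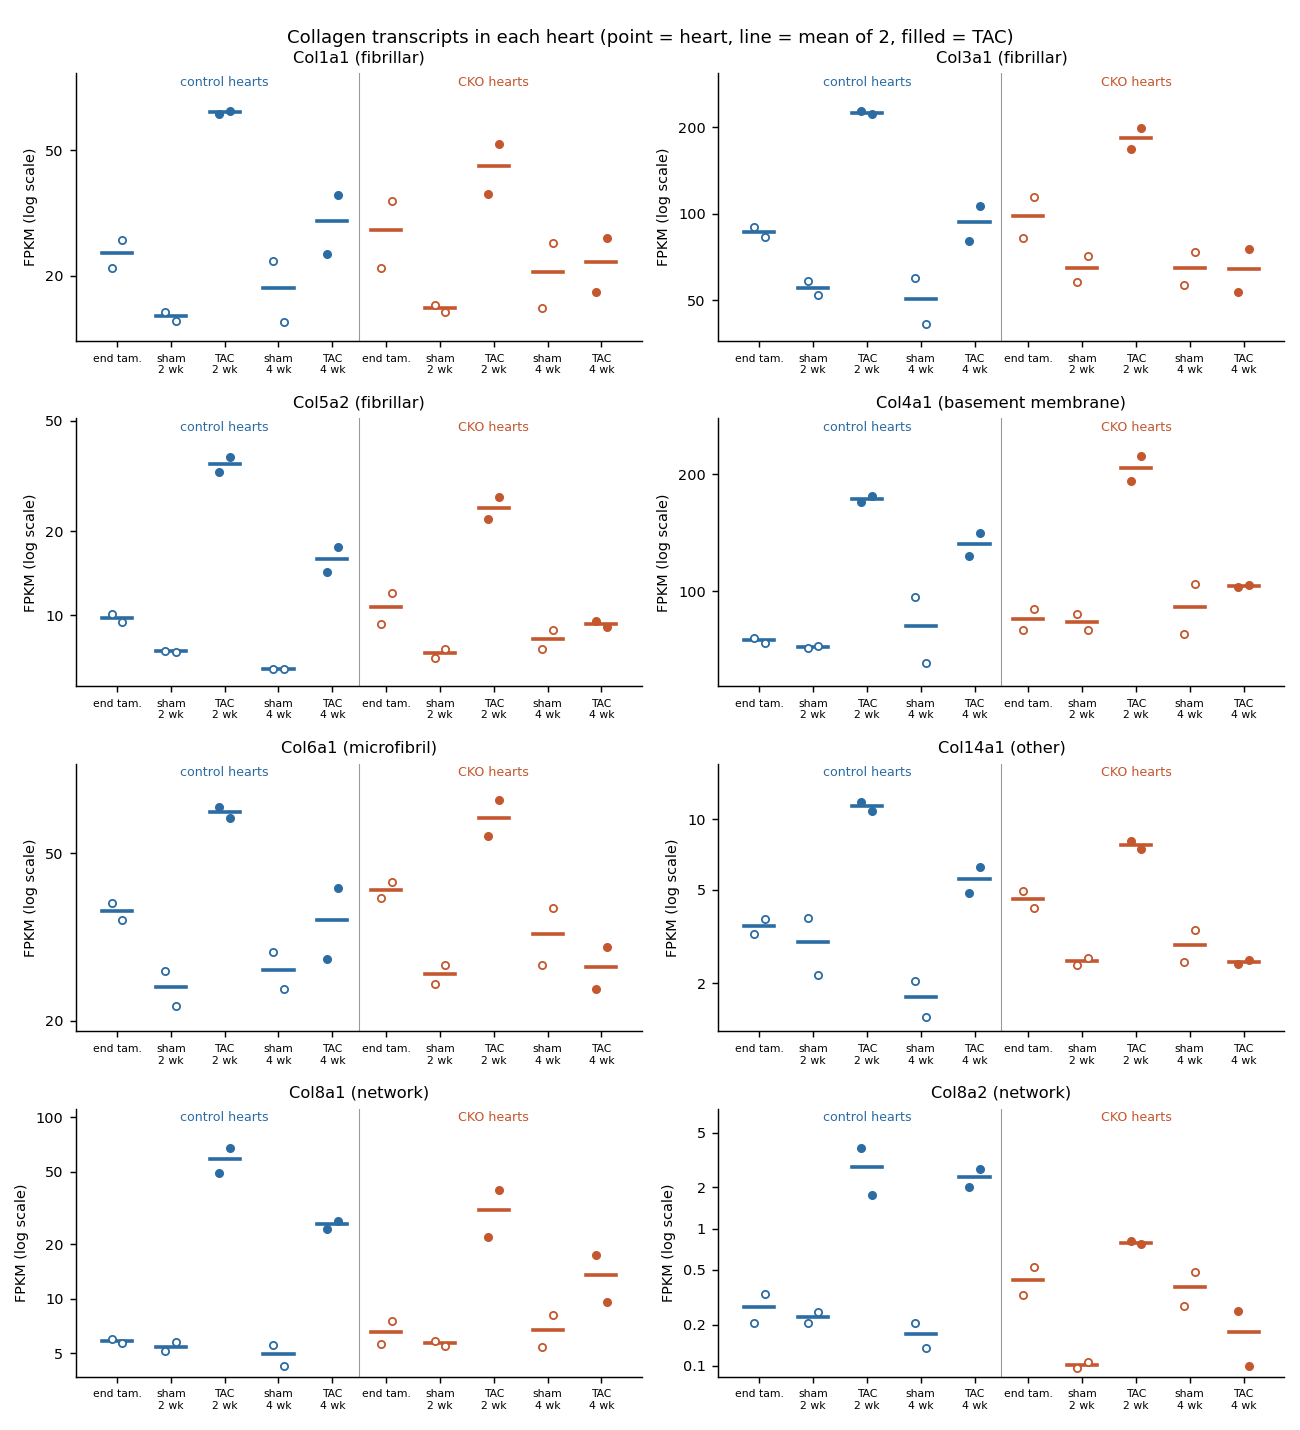
FPKM (log axis) of 8 collagen genes in each of the 20 hearts, by group; open points are hearts without TAC, filled points are TAC hearts, and lines are means of 2 hearts. Col8a1 reached 49.4 and 67.9 FPKM in control TAC hearts at 2 weeks, above every sham heart, and Col5a2 and Col14a1 in CKO TAC hearts at 4 weeks lay below both control TAC hearts.

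Col3a1, the chain of type III collagen, was 58.5 and 52.2 FPKM in the control sham hearts and 227 and 222 in the control TAC hearts at 2 weeks. At 4 weeks it was 59.8 and 41.5 in sham and 80.5 and 107 in TAC hearts. The TAC hearts lay above the sham hearts at each time, and the log2 difference over both times was 1.45 (SE 0.15, limma adjusted p = 1.53e-05). Col1a1, a chain of type I collagen, was 15.4 and 14.4 FPKM in sham and 65.1 and 66.4 in TAC hearts at 2 weeks, and 22.2 and 14.3 in sham and 23.4 and 36.1 in TAC hearts at 4 weeks. Over both times the log2 difference was 1.40 (SE 0.21, limma adjusted p = 0.000255), yet its 4-week difference alone, 0.69 (SE 0.30, limma adjusted p = 0.149), did not pass.

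Col5a2, a chain of type V collagen, which sets the width of type I fibrils, had the smallest p of the family. It was 7.45 and 7.37 FPKM in control sham and 32.8 and 37.2 in control TAC hearts at 2 weeks, and 6.41 and 6.38 in sham and 14.3 and 17.6 in TAC hearts at 4 weeks, with no overlap. The log2 difference over both times was 1.70 (SE 0.10, limma adjusted p = 1.03e-07). Col1a2, the partner chain of Col1a1, was 23.2 and 20.5 FPKM in control sham and 108 and 102 in control TAC hearts at 2 weeks, and rose on the log2 scale by 1.6 over both times. Col5a1, the other main type V chain, rose by 0.98. Col5a3, a type V chain, rose at 2 weeks by 0.90 (SE 0.27, limma adjusted p = 0.0272), a call that was lost when any 1 of the 4 hearts was left out, and stood at 0.35 (SE 0.19, limma adjusted p = 0.178) over both times, which did not pass.

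The called basement membrane genes stood at log2 differences of 0.53 to 1.14 over both times, and the called fibrillar genes at 0.98 to 1.70. Col4a1, a chain of the main type IV network, was 71.4 and 72.3 FPKM in control sham and 169.8 and 176 in control TAC hearts at 2 weeks, and 96.8 and 65.5 in sham and 123 and 141 in TAC hearts at 4 weeks. Its log2 difference over both times was 0.99 (SE 0.11, limma adjusted p = 2.83e-05), and that of Col4a2, which lies head to head with it and whose chain winds with its own, was 0.94 (SE 0.11, limma adjusted p = 2.60e-05). Col15a1 and Col18a1, proteoglycan collagens of basement membranes, rose by 1.14 and 0.88, and Col15a1 was 16.2 and 16.1 FPKM in control sham and 49.2 and 43.8 in control TAC hearts at 2 weeks. Col4a3 and Col4a5, chains of the network best known from the kidney, rose by 0.76 and 0.53. Col4a4, whose start lies 72 bases from that of Col4a3, stood at 0.42 (SE 0.15, limma adjusted p = 0.0511), short of the threshold, and Col4a6, whose start lies 1309 bases from that of Col4a5, was below the FPKM limit. The calls of Col4a1, Col4a2, Col1a2 and Col3a1 at 4 weeks alone were each lost without heart 2 (TAC) or heart 7 (sham), and either heart left out took the 4-week count from 10 to 5.

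The network gene Col8a1 had the largest log2 difference of all members. It was 5.13 and 5.75 FPKM in control sham and 49.4 and 67.9 in control TAC hearts at 2 weeks, and 5.58 and 4.28 in sham and 24.4 and 27.0 in TAC hearts at 4 weeks. The TAC hearts stood well apart from the sham hearts, and the log2 difference was 3.30 (SE 0.29, limma adjusted p = 8.92e-06) at 2 weeks and 2.28 (SE 0.29, limma adjusted p = 0.000397) at 4 weeks. Its partner chain Col8a2 was 0.204 and 0.246 FPKM in sham and 3.86 and 1.75 in TAC hearts at 2 weeks, and 0.205 and 0.134 in sham and 2.03 and 2.72 in TAC hearts at 4 weeks, a log2 difference over both times of 2.1 (SE 0.20, limma adjusted p = 6.29e-06). Col8a2 averaged 0.771 FPKM over the 20 hearts and passed the limit of 0.5 through its TAC hearts, which had to differ for it to pass.

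Type VI collagen split. Col6a1, Col6a2 and Col6a3, the chains of the usual type VI molecule, rose by 0.87, 0.85 and 0.76 over both times, and Col6a3 lost its call without heart 2, without heart 7 and without the hearts high in Myl7. Col6a1 was 26.3 and 21.7 FPKM in control sham and 64.4 and 60.6 in control TAC hearts at 2 weeks, and the TAC hearts lay above. Col6a6, a long chain that can stand in for Col6a3, went the other way. It was 0.673 and 0.810 FPKM in control sham and 0.356 and 0.203 in control TAC hearts at 2 weeks, and 0.962 and 1.04 in sham and 0.0596 and 0.141 in TAC hearts at 4 weeks. Its log2 difference over both times was -1.0 (SE 0.18, limma adjusted p = 0.000901), and it was the one tested member called lower.

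Of the other types, Col14a1 and Col16a1, collagens that sit on the surface of fibrils, rose by 1.62 (SE 0.15, limma adjusted p = 4.85e-06) and 1.58 (SE 0.15, limma adjusted p = 7.34e-06) over both times. Col14a1 was 3.80 and 2.18 FPKM in control sham and 11.8 and 10.9 in control TAC hearts at 2 weeks, and 2.05 and 1.44 in sham and 4.85 and 6.24 in TAC hearts at 4 weeks. Col16a1 was 1.10 and 0.711 FPKM in control sham and 5.76 and 6.22 in control TAC hearts at 2 weeks. Col27a1, a fibril-forming chain of cartilage and bone, rose by 0.52, a call that 5 of the 8 left-out hearts removed. The 2-week calls of Col4a4, Col5a3, Col6a3 and Col27a1 were each lost without any 1 heart. Over both times Col13a1, a collagen that spans the cell membrane, stood at -0.08 (SE 0.21, limma adjusted p = 0.806).

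**Figure D2:**
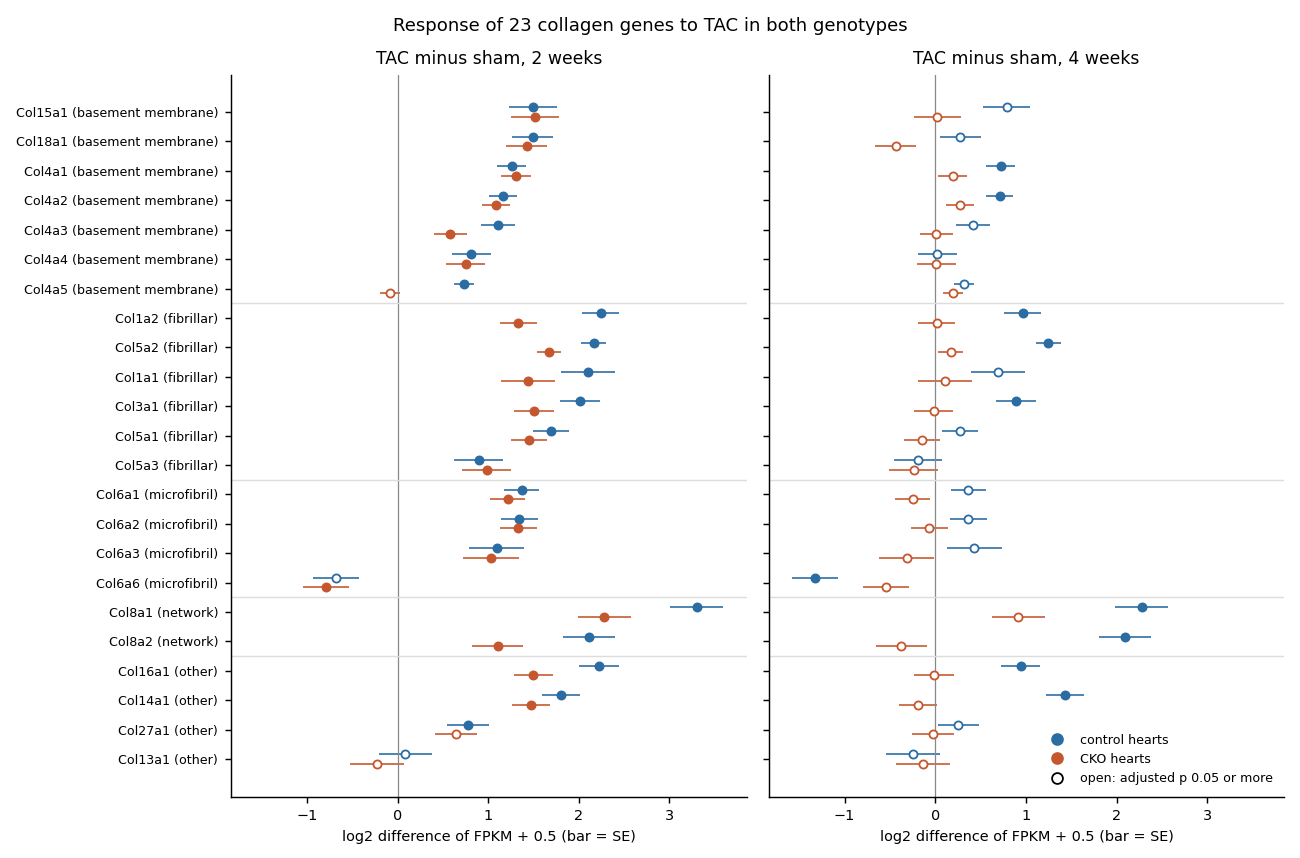
Log2 difference of FPKM + 0.5, TAC minus sham, at 2 weeks and at 4 weeks for the 23 tested collagen genes, in control hearts and in CKO hearts; bars are the SE of the limma fit, and open points have an adjusted p of 0.05 or more. At 2 weeks Col8a1 stood at 3.30 in control and 2.28 in CKO hearts, and at 4 weeks every CKO point is open.

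In CKO hearts most members were higher under TAC at 2 weeks, and none was called at 4 weeks. At 2 weeks 19 of 23 members were higher and 1, Col6a6, was lower (10% of all genes higher and 9.21% lower, 19.3% in all), with a median log2 difference of 1.31, and all 20 calls were lost when the 4 hearts were fitted without the other groups (13 calls were made without heart 15 or heart 31). Fitted alone, the 4 hearts gave Col4a1, Col4a2, Col3a1 and Col5a2 the same limma adjusted p of 0.0583. The number of all genes called in that fit is not given here, so the loss is not read as particular to these members. Without the hearts high in Myl7, which left 1 CKO sham heart (15) at 2 weeks, the calls of Col4a3, Col4a4, Col5a3 and Col6a3 were lost there. At 4 weeks limma called none of the 23 (0.262% of all genes called), 1 member had an unadjusted p under 0.05, and the median log2 difference was -0.02. Over both times 13 were higher and 1, Col6a6, was lower (4.23% of all genes higher and 4.89% lower, 9.11% in all), which fell to 7 calls without the hearts high in Myl7 and to 4, 8, 9 and 9 without hearts 31, 4, 15 and 41. Col4a1, Col4a2, Col5a2 and Col8a1 were called under every alternative. The FPKM of all members together was 368 ± 6.83 in CKO sham and 935 ± 129.7 in CKO TAC hearts at 2 weeks, and 417 ± 94.8 and 439.8 ± 29.8 at 4 weeks (SD, n = 2).

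Col3a1 was 58.1 and 71.5 FPKM in CKO sham and 169 and 199.8 in CKO TAC hearts at 2 weeks, and its log2 difference was 1.5 (SE 0.22, limma adjusted p = 0.000880). At 4 weeks it was 56.5 and 73.5 in sham and 53.4 and 75.7 in TAC hearts. These ranges overlapped, and the difference was -0.02 (SE 0.22, limma adjusted p = 0.984). Col4a1 was 87.3 and 79.5 FPKM in CKO sham and 192 and 223 in CKO TAC hearts at 2 weeks, then 77.8 and 104 in sham and 103 and 103 in TAC hearts at 4 weeks, and over both times it rose by 0.75 (SE 0.11, limma adjusted p = 0.00207). Col8a1 was 5.87 and 5.47 FPKM in CKO sham and 21.9 and 39.6 in CKO TAC hearts at 2 weeks. At 4 weeks both CKO TAC hearts, at 17.4 and 9.57 FPKM, were still above the sham hearts at 5.39 and 8.10, but the difference of 0.92 (SE 0.29, limma adjusted p = 0.206) did not pass.

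The response itself was compared between the times. In CKO hearts it was smaller at 4 than at 2 weeks for 13 of 23 members (3.83% of all genes lower and 2.71% higher, 6.54% in all), none was larger, and the median difference of responses was -1.35. The 13 were Col4a1, Col4a2, Col15a1, Col18a1, Col1a2, Col3a1, Col5a1, Col5a2, Col6a1, Col6a2, Col8a2, Col14a1 and Col16a1, from -0.81 (SE 0.21, limma adjusted p = 0.0381) for Col4a2 to -1.86 (SE 0.32, limma adjusted p = 0.0103) for Col18a1. The count was 1 without heart 31, 3 without heart 8, 7 without heart 15, 8 without heart 3, 3 without the hearts high in Myl7 and 0 with the 8 CKO hearts fitted alone. In control hearts no member passed (0.00794% of all genes called), although the median was -0.79 and 15 of 23 had an unadjusted p under 0.05. The change with time was not compared between the genotypes by a test.

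**Figure D3:**
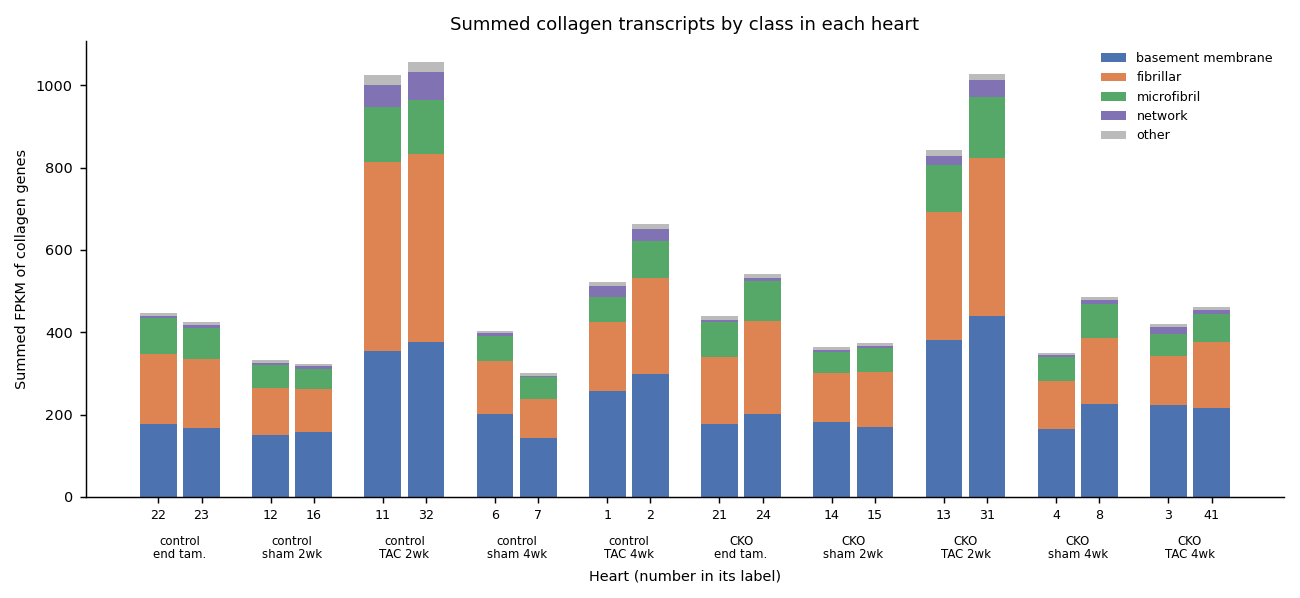
Stacked bars of the summed FPKM of the collagen classes in each of the 20 hearts, by group, with the number of the heart under its bar. The fibrillar class stood at 458 ± 1.14 FPKM in control TAC hearts at 2 weeks, and at 139.6 ± 30.2 FPKM in CKO TAC beside 139.5 ± 31.6 in CKO sham hearts at 4 weeks (mean ± SD, n = 2).

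The make-up of the collagen total differed between the groups. Fibrillar genes took 33.4% ± 1.24 of collagen FPKM in control sham and 44.0% ± 1.03 in control TAC hearts at 2 weeks, and basement membrane genes 46.9% ± 2.18 and 35.2% ± 0.758 (SD, n = 2, a description with no test). The CKO TAC hearts at 2 weeks had 37.2% ± 0.258 fibrillar and 44.0% ± 1.56 basement membrane, beside 34.1% ± 2.01 and 47.9% ± 3.13 in CKO sham hearts. At 4 weeks the fibrillar share was 32.0% ± 0.278 in control sham and 33.9% ± 1.99 in control TAC hearts, and 33.4% ± 0.0289 and 31.6% ± 4.73 in CKO hearts. The network share was higher in TAC than in sham hearts at both times and in both genotypes, at 1.46% ± 0.0210 in control sham and 4.77% ± 0.406 in control TAC hearts at 4 weeks, and 1.69% ± 0.110 and 3.16% ± 1.5 in the CKO hearts.

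A few members responded less to TAC in CKO than in control hearts. Over both times the difference of responses, CKO minus control, was below 0 and called for 4 of 23 members and above 0 for none (0.913% of all genes lower and 0.334% higher, 1.25% in all), with a median of -0.39. The 4 were Col5a2 at -0.78 (SE 0.14, limma adjusted p = 0.0136), Col14a1 at -0.98 (SE 0.21, limma adjusted p = 0.0404), Col1a2 at -0.93 (SE 0.20, limma adjusted p = 0.0435) and Col8a2 at -1.74 (SE 0.28, limma adjusted p = 0.0105). Col8a2 passed the FPKM limit mainly through the control TAC hearts, the group it is compared with here, so its differences between the genotypes are tied to that limit and are a description. It was also called by limma in the fit without the limit. Without the hearts high in Myl7 none of the 4 passed, and with 1 heart left out 2 to 4 did. Col5a2 and Col8a2 were called each time, Col1a2 was lost in 11 and Col14a1 in 13 of the 16 hearts left out. No basement membrane or type VI gene was called, which is near the share of all genes and does not set these classes apart. Of 7 basement membrane genes 0 had a difference above 0, with a median of -0.37, and of 4 type VI genes 1 had, with a median of -0.30. At 2 weeks no member passed (0.0159% of all genes called, 6 of 23 members with an unadjusted p under 0.05).

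At 4 weeks 3 members differed in response, all lower in CKO hearts (0.54% of all genes lower and 0.207% higher, 0.747% in all), which were Col14a1 at -1.63 (SE 0.30, limma adjusted p = 0.0232), Col5a2 at -1.07 (SE 0.19, limma adjusted p = 0.0221) and, with the limit just named, Col8a2 at -2.47 (SE 0.40, limma adjusted p = 0.0144). Col5a2 was 7.57 and 8.83 FPKM in CKO sham and 9.49 and 9.06 in CKO TAC hearts at 4 weeks, below the control TAC hearts given above. Col14a1 was 2.46 and 3.38 FPKM in CKO sham and 2.42 and 2.51 in CKO TAC hearts, which overlapped. Col8a2 was 0.271 and 0.480 FPKM in CKO sham and 0.252 and 0.0989 in CKO TAC hearts, so both CKO TAC hearts were below both CKO sham hearts while control hearts went the other way. All 3 calls were lost without any 1 of hearts 2, 7, 8 and 41, and with the 8 hearts of 4 weeks fitted alone.

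Set side by side, TAC hearts of the genotypes differed in the same 3 genes at 4 weeks, and these comparisons share their TAC hearts. CKO against control was -0.74 (SE 0.14, limma adjusted p = 0.0216) for Col5a2, -1.02 (SE 0.21, limma adjusted p = 0.0409) for Col14a1 and, with the same limit, -2.09 (SE 0.28, limma adjusted p = 0.00281) for Col8a2 (0.604% of all genes lower and 0.23% higher, 0.834% in all). The call of Col8a2 held with each heart left out, that of Col5a2 was lost without hearts 1, 2 or 41 and that of Col14a1 without any 1 of the 4. At 2 weeks no member was called (0.413% of all genes called), with 8 of 23 under an unadjusted p of 0.05, among them Col8a1, which was 49.4 and 67.9 FPKM in control and 21.9 and 39.6 FPKM in CKO TAC hearts. Without a filter on low values 3 members passed there (0.377% of 17793 genes lower and 0.174% higher, 0.551% in all).

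Between unloaded hearts of the genotypes no member was called, where hardly any gene was. At the end of tamoxifen limma called none between CKO and control (0.0159% of all genes called). An unadjusted p under 0.05 was found for 0 of 23 members, beside 431 of all 12589 genes. There 18 of 23 members stood above 0, CKO minus control, with a median of 0.17. Limma called none between their sham hearts (0.00794% of all genes called), where 21 of 23 stood above 0, with a median of 0.15. Of the 23, 1 had an unadjusted p under 0.05 there, beside 518 of all 12589 genes. Sham hearts at 4 and 2 weeks gave no called member either (0% of all genes called). Of the 23, 2 had an unadjusted p under 0.05 there, beside 1894 of all 12589 genes. Against the end of tamoxifen, 3 members were lower in sham hearts at 2 weeks (0.54% of all genes lower and 0.373% higher, 0.913% in all), which were Col5a1 at -0.72 (SE 0.14, limma adjusted p = 0.0331), Col6a2 at -0.67 (SE 0.14, limma adjusted p = 0.0470) and Col6a1 at -0.63 (SE 0.14, limma adjusted p = 0.0470). Of the 23 members, 16 had an unadjusted p under 0.05, as had 1967 of all 12589 genes, and 1 stood above 0, with a median of -0.55. Both CKO hearts at the end of tamoxifen were high in Myl7, at 323 and 50.6 FPKM, so this comparison could not be run without such hearts. Col6a1 was 38.1 and 34.6 FPKM in control and 39.1 and 42.8 in CKO hearts before any operation, and 26.3 and 21.7 in control and 24.5 and 27.2 in CKO sham hearts. These calls were lost without a filter on low values and without all but 1 (Col5a1) or any (Col6a1 and Col6a2) of the 8 hearts.

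The ratio of Col3a1 to Col1a1, a common index of fibre composition, was 3.46 ± 0.633 in the 8 sham and 3.45 ± 0.576 in the 8 TAC hearts (SD). The ratio of Col1a2 to Col1a1 was 1.51 ± 0.169 and 1.56 ± 0.143, and that of Col4a2 to Col4a1 0.759 ± 0.023 and 0.730 ± 0.0661. By genotype, Col1a2 to Col1a1 was 1.42 ± 0.141 in sham and 1.63 ± 0.0773 in TAC control hearts. In CKO hearts it was 1.60 ± 0.164 in sham and 1.49 ± 0.168 in TAC hearts (SD, n = 4, not tested apart). Of 8 ratios tested by an exact two-sided permutation test within genotype and time, 1 passed after BH adjustment. Col5a2 to Col5a1 went from 1.20 ± 0.216 in sham to 1.70 ± 0.343 in TAC hearts, a log2 difference of 0.50 that was up in 4 of 4 pairs of groups (exact permutation p = 0.0015, the smallest this design can give, adjusted p = 0.0123, n = 8). Control hearts at 4 weeks stood at 0.901 and 1.13 in sham and 2.04 and 2.05 in TAC hearts, and CKO hearts at 1.10 and 0.922 in sham and 1.46 and 1.11 in TAC hearts. The ratio of Col5a1 to Col1a1 went from 0.365 ± 0.0418 to 0.311 ± 0.05, with an exact permutation p of 0.0262 and an adjusted p of 0.105 (n = 8). It went from 0.355 ± 0.0309 to 0.273 ± 0.0347 in control and from 0.375 ± 0.0533 to 0.348 ± 0.0283 in CKO hearts (SD, n = 4, not tested apart).

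**Figure D4:**
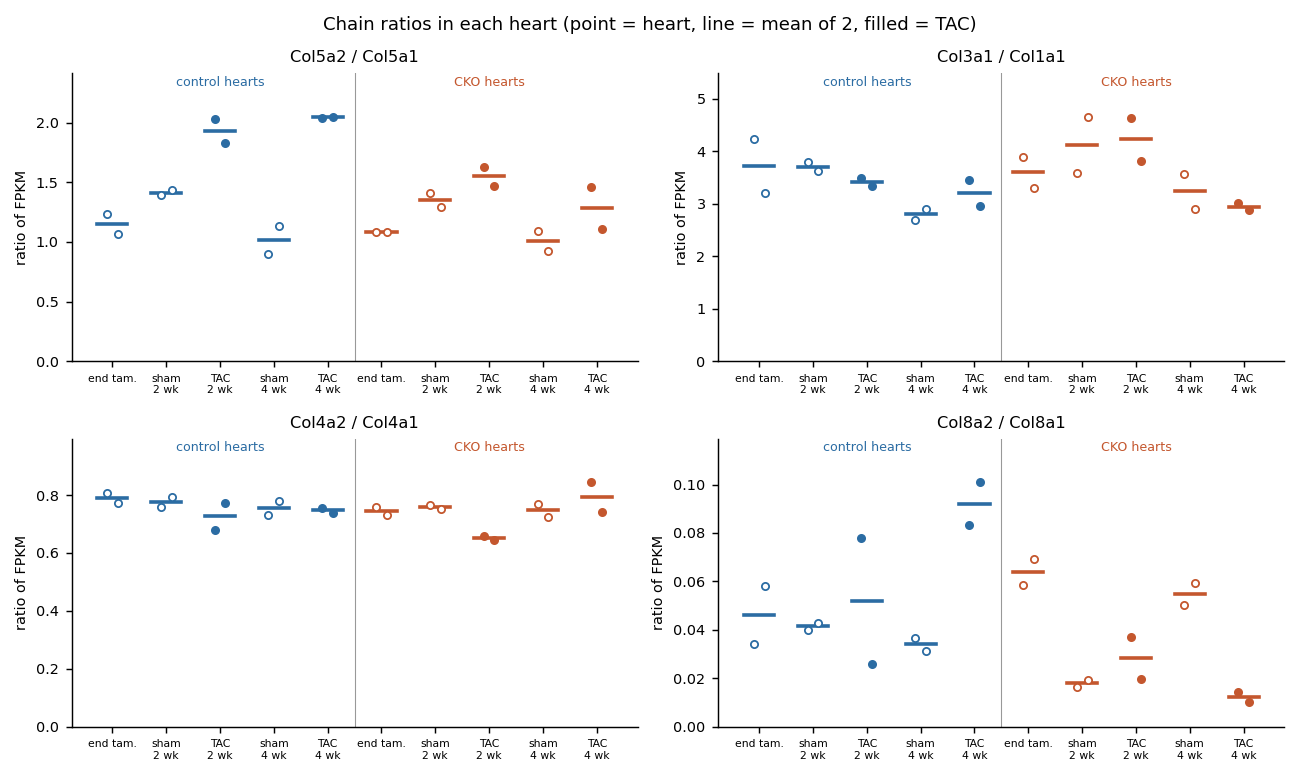
Ratio of FPKM of 4 pairs of collagen chains in each heart, by group; open points are hearts without TAC, filled points are TAC hearts, and lines are means of 2 hearts. Col5a2/Col5a1 was 1.70 ± 0.343 in TAC and 1.20 ± 0.216 in sham hearts (SD, n = 8), while Col3a1/Col1a1 lay between 2.69 and 4.65 in the 16 operated hearts.

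The 20 members below the limit reached at most 1.16 FPKM in any heart. They were Col4a6, Col2a1, Col11a1, Col11a2, Col6a4, Col6a5, Col10a1, Col7a1, Col9a1, Col9a2, Col9a3, Col12a1, Col17a1, Col19a1, Col20a1, Col22a1, Col23a1, Col24a1, Col25a1 and Col28a1. In a fit without the limit, over 17793 genes, 4 were higher under TAC in control hearts over both times (11.1% of all genes higher and 10.9% lower, 22% in all), and in CKO hearts 1 (Col9a2) was higher and 1 (Col23a1) lower (2.64% higher and 2.82% lower, 5.46% in all). The difference of responses, CKO minus control, was called for 2 of the 20, both lower (0.551% of all genes lower and 0.163% higher, 0.714% in all). Col12a1, a collagen that bridges fibrils in tendon and in healing tissue, was 0.0368 and 0.122 FPKM in control sham and 1.03 and 1.16 in control TAC hearts at 2 weeks, and 0.0421 and 0.0723 in sham and 0.681 and 0.810 in TAC hearts at 4 weeks. In CKO TAC hearts it was 0.219 and 0.428 FPKM at 2 weeks and 0.117 and 0.0712 at 4 weeks. Its control response was 1.31 (SE 0.10, limma adjusted p = 3.28e-06), and the difference of responses, CKO minus control, was -1.01 (SE 0.14, limma adjusted p = 0.00617). Col9a2, a chain of a cartilage collagen that coats fibrils, was 1.01 and 1.0 FPKM in control TAC hearts at 2 weeks and 0.282 and 0.269 in CKO TAC hearts, with a control response of 0.98 (SE 0.08, limma adjusted p = 6.24e-06) and a difference between the genotypes of -0.63 (SE 0.11, limma adjusted p = 0.0237). Col2a1, the main collagen of cartilage, was at most 0.0314 FPKM in any heart. Col22a1, found at tissue junctions, and Col11a1, a fibrillar chain of cartilage, were the other 2 called in control hearts, at 0.38 (SE 0.09, limma adjusted p = 0.0127) and 0.34 (SE 0.09, limma adjusted p = 0.0162). Members below the limit were singled out after their values were seen.

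**Figure D5:**
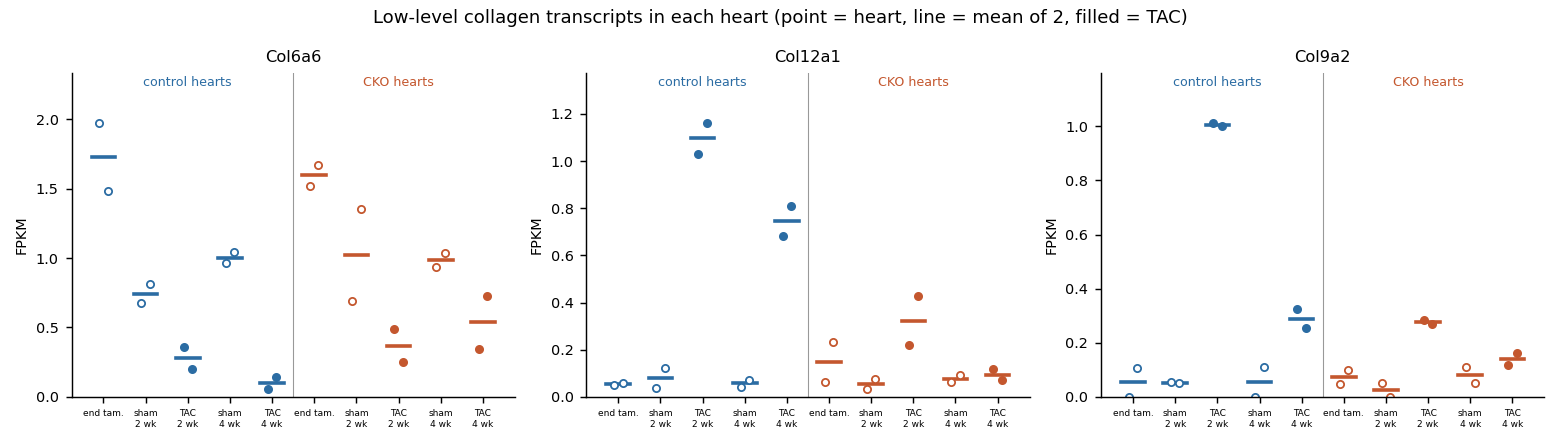
FPKM of the low collagen genes Col6a6, Col12a1 and Col9a2 in each heart, by group; open points are hearts without TAC, filled points are TAC hearts, and lines are means of 2 hearts. Col12a1 and Col9a2 stood highest in control TAC hearts at 2 weeks, at 1.03 and 1.16 FPKM and 1.01 and 1.0 FPKM, while Col6a6 was lower in TAC than in sham hearts of each pair of groups.

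Genes that act on collagens were followed in 4 lists. Over both times 15.3% of all genes were called higher and 16.1% lower in control hearts, 4.23% and 4.89% in CKO hearts, and 0.913% had a lower response in CKO hearts. Of genes that cut propeptides, assemble fibrils or crosslink them, 15 of 16 tested were higher under TAC in control hearts over both times and 9 in CKO hearts, and the response was lower in CKO hearts for 10. Periostin (Postn), a matrix protein that aids crosslinking, rose by 3.74 (SE 0.17, limma adjusted p = 3.22e-08) in control and 1.93 (SE 0.17, limma adjusted p = 9.63e-05) in CKO hearts. Fmod, a fibril-binding proteoglycan, stood at 3.06 and 0.57, and the crosslinking oxidase Lox at 2.25 and 0.71 (SE 0.24, limma adjusted p = 0.0769), neither called in CKO hearts. Of genes that fold and modify chains inside the cell, 7 of 22 were higher and 3 lower in control hearts and 1 higher and 1 lower in CKO hearts, so the counts in CKO hearts and the lower count in control hearts were near those shares. The largest differences in control hearts were those of the prolyl hydroxylase family, Leprel1 at 1.10, Leprel2 at 0.74 and Leprel4 at -0.68. Of collagen receptors 3 of 9 were higher in control hearts, the uptake receptor Mrc2 by 1.12, the receptor kinase Ddr1 by 0.59 and the integrin chain Itgb1 by 0.40, and 1 of them, Mrc2, in CKO hearts. Of proteases and their inhibitors 7 of 11 were higher and 2 lower in control hearts, and 1 higher and 2 lower in CKO hearts. The inhibitor Timp1 stood at 2.59 in control and 0.84 in CKO hearts, the latter not called, Timp4 at -1.57 and -0.76, and the collagen-cutting cathepsin Ctsk at 1.57 and 0.49. In CKO hearts at 4 weeks limma called no gene of these 4 lists, where it called 0.262% of all genes, so the count says nothing particular to the lists. Across lists, comparisons and alternative settings other than hearts left out singly, a count moved by more than 1.5-fold, or from 0, in 36 cases and held in 276. With hearts left out singly, a count moved in 62 cases and held in 194.

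Markers of fibroblasts differed in the same comparisons. Of 9, 7 were higher and 1 lower under TAC in control hearts over both times, and 3 higher and 1 lower in CKO hearts, to be read against the shares of all genes just given. At 4 weeks 3 were higher and 1 lower in control hearts and none was called in CKO hearts (12.7% and 0.262% of all genes called), and the response over both times was lower in CKO hearts for 4. At 2 weeks 7 were higher and 0 lower in control hearts, with a median log2 difference of 1.01 (23.8% of all genes called). In CKO hearts 5 were higher and 1 lower there, with a median of 0.70 (19.3% of all genes called). The summed level of the 9 markers, which the most abundant of them weigh on most, was 1289 to 1377 FPKM in control sham and 1807 to 1847 in control TAC hearts at 2 weeks. In CKO hearts it was 1271 to 1423 in sham and 1222 to 1435 in TAC hearts. At 4 weeks it was 1317 to 1436 in control sham, 1228 to 1452 in control TAC, 1443 to 1495 in CKO sham and 1160.5 to 1249 in CKO TAC hearts. None of the 9 was at 0 in both hearts of any group. The part of fibroblasts in the collagen values was not tested. Of 6 macrophage markers 4 were higher in control hearts over both times and 1 in CKO hearts, of 6 endothelial markers 1 and 0, near the share of all genes, of 7 smooth muscle and pericyte markers 2 and 2, and of 7 heart muscle markers none was higher and 4 were lower in each genotype. Of 6 cartilage markers 2 passed the limit, and over both times 1 was called higher and 1 lower in control hearts. Comp was 12.0 ± 4.43 FPKM in control TAC against 0.985 ± 0.344 in control sham hearts, and Lect1 was 0.213 ± 0.158 against 1.53 ± 0.773 (SD, n = 4).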

How the data were processed

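Total RNA of each heart was made into stranded messenger RNA libraries (TruSeq Stranded mRNA), per the labels' protocols. Per the submitters' processing notes, TopHat2 2.1.1, Bowtie2 and Cuffdiff 2.2.1 were used with build mm10. The deposited values are FPKM, computed by the authors per gene and heart. They hold no counts, and the fragments behind each value are not given in the sources used here, so no counting interval is given.

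Genes averaging 0.5 FPKM or more were analysed as log2(FPKM + 0.5), a scale that understates the change of low genes. Limma 3.58.1 in R 4.3.3 fitted 1 mean for each of the 10 groups with a variance trend (10 residual and a median of 3.81 prior degrees of freedom), 17 contrasts and BH adjustment over 12589 genes. Chain ratios were tested by exact permutation of the operated hearts. Class sums are descriptions. Scripts were tested on simulated data. The alternatives were pseudocounts of 0.1 and 1 FPKM, a limit of 3 FPKM or none, scaling by median ratio or quantiles, no variance trend, the compared groups alone, and each heart left out. The text names every tested member, with values by heart for those highest in their class or with the largest called differences, and the 3 largest called differences of each pathway list in control hearts over both times. Members, classes, lists and tests were chosen with earlier results of these data known. Promoters are RefSeq's, build GRCm38.p6.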

Additional observations from a re-analysis of the deposited data

Results flagged for a closer look

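Members whose response to TAC differed between groups by the test of that difference itself are listed here with the log2 difference of responses (limma, BH over 12589 genes). Between the genotypes over both times, CKO minus control, these were Col1a2 at -0.93, Col5a2 at -0.78, Col8a2 at -1.74 and Col14a1 at -0.98. At 4 weeks they were Col5a2 at -1.07, Col8a2 at -2.47 and Col14a1 at -1.63. The SE of these 7 lay between 0.14 for Col5a2 over both times and 0.40 for Col8a2 at 4 weeks, and adjusted p between 0.0105 and 0.0435. Col8a2 passed the FPKM limit mainly through the control TAC hearts, so its values between the genotypes are a description. Without the hearts high in Myl7 none of the calls over both times passed.

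Within CKO hearts, the response at 4 weeks minus that at 2 weeks stood out for 13 members. In the basement membrane it was -1.86 for Col18a1, -1.49 for Col15a1, -1.11 for Col4a1 and -0.81 for Col4a2. Among fibrillar genes it was -1.61 for Col5a1, -1.52 for Col3a1, -1.5 for Col5a2 and -1.32 for Col1a2. In the remaining classes it was -1.46 for Col6a1, -1.40 for Col6a2, -1.48 for Col8a2, -1.67 for Col14a1 and -1.51 for Col16a1. With each heart left out in turn, the call of Col5a2 held each time, those of Col18a1 and Col5a1 were lost once, without heart 31, and the other 10 were lost at least 2 times. With 2 hearts in a group, no group was tested for a heart standing apart.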

How the results depend on the processing

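With the compared groups fitted alone, the members called fell to 4 for TAC against sham in control hearts at 4 weeks, 5 in CKO hearts over both times and 0 in CKO hearts at 2 weeks, to 2 and 0 for the difference of responses between genotypes over both times and at 4 weeks, and to 0 for the change of response with time in CKO hearts, for CKO against control in TAC hearts at 4 weeks and for sham at 2 weeks against the end of tamoxifen. These fits have fewer hearts from which to estimate the spread. The number of all genes called in them, or with a heart left out, is not given here, so a changed count is not read as particular to collagen genes. Without a filter on low values, that last count was 0 and CKO against control in TAC hearts at 2 weeks had 3, and a pseudocount of 1 FPKM or a prior without trend gave 1. Leaving out the 5 hearts with Myl7 of at least 10 FPKM, chosen after seeing the data, gave 7 for CKO hearts over both times, 0 for the difference of responses over both times and 3 for the change with time in CKO hearts. It could not be run for contrasts that use the end of tamoxifen, since it removes both CKO hearts there. At 2 weeks it left 1 heart in each of control TAC, control sham and CKO sham. With each heart left out in turn, control hearts gave 18 to 20 calls over both times, 17 at 2 weeks and 5 to 9 at 4 weeks, and CKO hearts 4 to 14, 13 to 17 and 0. The difference between genotypes gave 2 to 4, 0, and at 4 weeks 0 to 3, the change with time in CKO hearts 1 to 13 and in control hearts 0, the TAC hearts of the genotypes 0 to 1 at 2 weeks and 1 to 2 at 4 weeks, sham against the end of tamoxifen 0 to 2, and the other comparisons 0. No called member changed sign under any of these alternatives. With 0.5 FPKM added to both chains, the log2 difference of Col3a1/Col1a1, -0.00257 without it, went to 0.0124, and Col5a1/Col1a1 at -0.27 and Col8a2/Col8a1 at -0.96 came past the threshold. Without the added value Col8a2/Col8a1 stood at -0.00218 and was up in 3 of 4 pairs of groups. Col8a2 was under 0.5 FPKM in every sham heart, so the value added exceeded its own level there, and the -0.96 is not read as a change of the ratio. Left-out hearts gave -0.0494 to 0.0443 for Col3a1/Col1a1, -0.20 to 0.20 for Col8a2/Col8a1, -0.28 to -0.20 for Col5a1/Col1a1 and 0.45 to 0.55 for Col5a2/Col5a1. No paired analysis was possible because every heart number occurs once. Depth is not given in the deposited FPKM, so counting error, which weighs most on members under about 1 FPKM, is unknown, and 2 hearts in a group limit every call.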
